A study of Mus musculus with 12 samples.

Results

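The genes described here encode the proteins that carry long-chain fatty acids into the atrial muscle cell and oxidise them in its mitochondria. They were chosen by name, as 35 genes in 9 steps from uptake to electron transfer, with earlier results of these data known. Probes with a matching current or older symbol were found for 33 of the 35 genes, among 17655 genes measured in all. Acsl1 and Ucp2 had no matching probe and were not analysed here.

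Heart muscle draws most of its energy from fatty acids. Lipoprotein lipase frees them from circulating triglyceride at the capillary wall, membrane and cytosolic carriers bring them into the cell, and acyl-CoA synthetases activate them. The carnitine shuttle moves the acyl group across the mitochondrial membranes, a step held back by malonyl-CoA, and beta oxidation then shortens the chain in repeated rounds of dehydrogenation, hydration, dehydrogenation and thiolysis.

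RNA from the atria of 12 male mice was hybridised to Illumina Sentrix Mouse-6 beadchips, on which bead-bound oligonucleotide probes read each transcript. The 6 Tbx3 mice (Cre4-CT) were double transgenic: they carried Nppa-Cre4, in which Nppa sequences active in atrial muscle drive Cre recombinase, and the CT construct, from which Cre turns on the T-box repressor Tbx3. The 6 Control mice (Cre4) carried Nppa-Cre4 alone, so both groups expressed Cre, and no group carried CT without Cre. The labels call the samples biological replicates and give no age. Levels are log2 signals after quantile normalization, with natural logs inferred as the scale of the deposited table. Were its base 2, every log2 change would be 0.693 times as large, and no p-value would differ. A change is Tbx3 minus Control on the log2 scale, and a gene was called lower or higher at an adjusted p under 0.05 in limma, with Benjamini-Hochberg adjustment over all 46114 probes. Probe affinities differ, so levels are compared between arrays for 1 probe and not between genes.

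Myl4 and Myl7, the atrial myosin light chain genes, were read by some of the brightest probes in both groups. The brighter Tbx3 probe read lower in the Tbx3 group (change -0.42, adjusted p = 0.0263) and the dimmer one did not pass (0.02, adjusted p = 0.982), and which transcript of the transgene they could detect is not given in the sources used here, so they do not check the labels. Array pairs correlated at 0.97 to 0.98 within groups and 0.963 to 0.976 between groups over all probes. Some genes listed as cell type markers moved with the group. The mean level of the 6 measured erythroid markers of 10 listed ran from 7.28 to 8.60 in Control and from 8.23 to 9.21 in Tbx3 arrays, with 1 gene higher (Slc4a1). Of 12 fibroblast markers, 4 were higher (Dpt, Lum, Col1a1 and S100a4), with means from 9.81 to 10.14 in Control and from 9.93 to 10.51 in Tbx3 arrays. Of 16 measured cardiomyocyte markers, 5 were lower (Myh6, Ryr2, Atp2a2, Ttn and Mb) and 1 was higher (Slc8a1), with means from 12.72 to 13.00 and from 12.59 to 12.99. The means of these 3 lists overlapped between the groups, whereas those of skeletal muscle markers, of Schwann cell and neuron markers and of adipocyte markers (given with Fabp4) did not. The adipocyte markers did not move together: their median change was 0.02, with Cidea at 1.86 and Plin4 at -0.71. Of 10 measured skeletal muscle markers, 4 were lower: Tnni2 (-3.28, adjusted p = 5.66e-09), Atp2a1 (-1.72, adjusted p = 2.8e-09), Ckm (-0.97, adjusted p = 1.03e-06) and Acta1 (-0.95, adjusted p = 0.00885). Their probes were at percentiles 89.0, 81.7, 96.8 and 82.7, and whether skeletal or heart muscle gave these signals was not tested. Tnnt3, Tnnc2, Myh1, Myh4, Mylpf and Pvalb did not pass, with changes from -0.12 to 0.17 and probes at percentiles 3.5 to 54.1. The median change of all 10 was -0.12, and their mean level ran from 6.47 to 6.88 in Control and from 5.82 to 6.05 in Tbx3 arrays. Of 7 measured Schwann cell and neuron markers, 2 were higher (Sox10 and Uchl1), with means from 5.47 to 5.62 and from 5.70 to 5.91. The part of these shifts in the results below was not tested, except where a value adjusted for the erythroid mean (added to the fit as a covariate) is given.

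Of the 33 measured fatty acid genes, 7 fell in the Tbx3 atria, 0 rose and 26 did not pass the test. The genes that fell were Fabp3, Cpt1b, Cpt2, Mlycd, Acadvl, Acaa2 and Eci1, by 0.50 to 0.71 on the log2 scale, which left 61.3% to 70.5% of the Control level. They lie in uptake, the carnitine shuttle, malonyl-CoA control, long-chain oxidation, the medium and short-chain steps and the auxiliary steps. Of all 17655 genes 2.98% were called lower and 2.97% higher, against 21.2% and 0 of the fatty acid genes. Of the 33 genes, 26 had probes above the 75th percentile of brightness, all 7 that fell among them. Above that percentile 6.64% of 7351 genes were called lower. The median change of the 33 genes was -0.25, while that of all genes was -0.00321. The sign was negative for 31 genes and positive for 2, Acsl4 and Cpt1a. At an unadjusted p under 0.05 in limma, 18 fatty acid genes were lower and 1 was higher, against 8.88% and 8.51% of all genes. Of the 7351 genes with brighter probes, 1228 were lower and 1166 higher at that level. In 5 of the 33 genes every Tbx3 array read below every Control array, against 2.15% of all genes and 353 of the 7351 with brighter probes. Those 5 were Fabp4, Cpt1b, Cpt2, Acaa2 and Eci1. After erythroid adjustment 3 of the 33 genes stayed called lower (Cpt1b, Cpt2 and Acaa2), while the calls over all probes in either direction went from 1592 to 805. In whole atria, fewer cells of a type and less RNA per cell cannot be told apart.

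**Figure D1:**
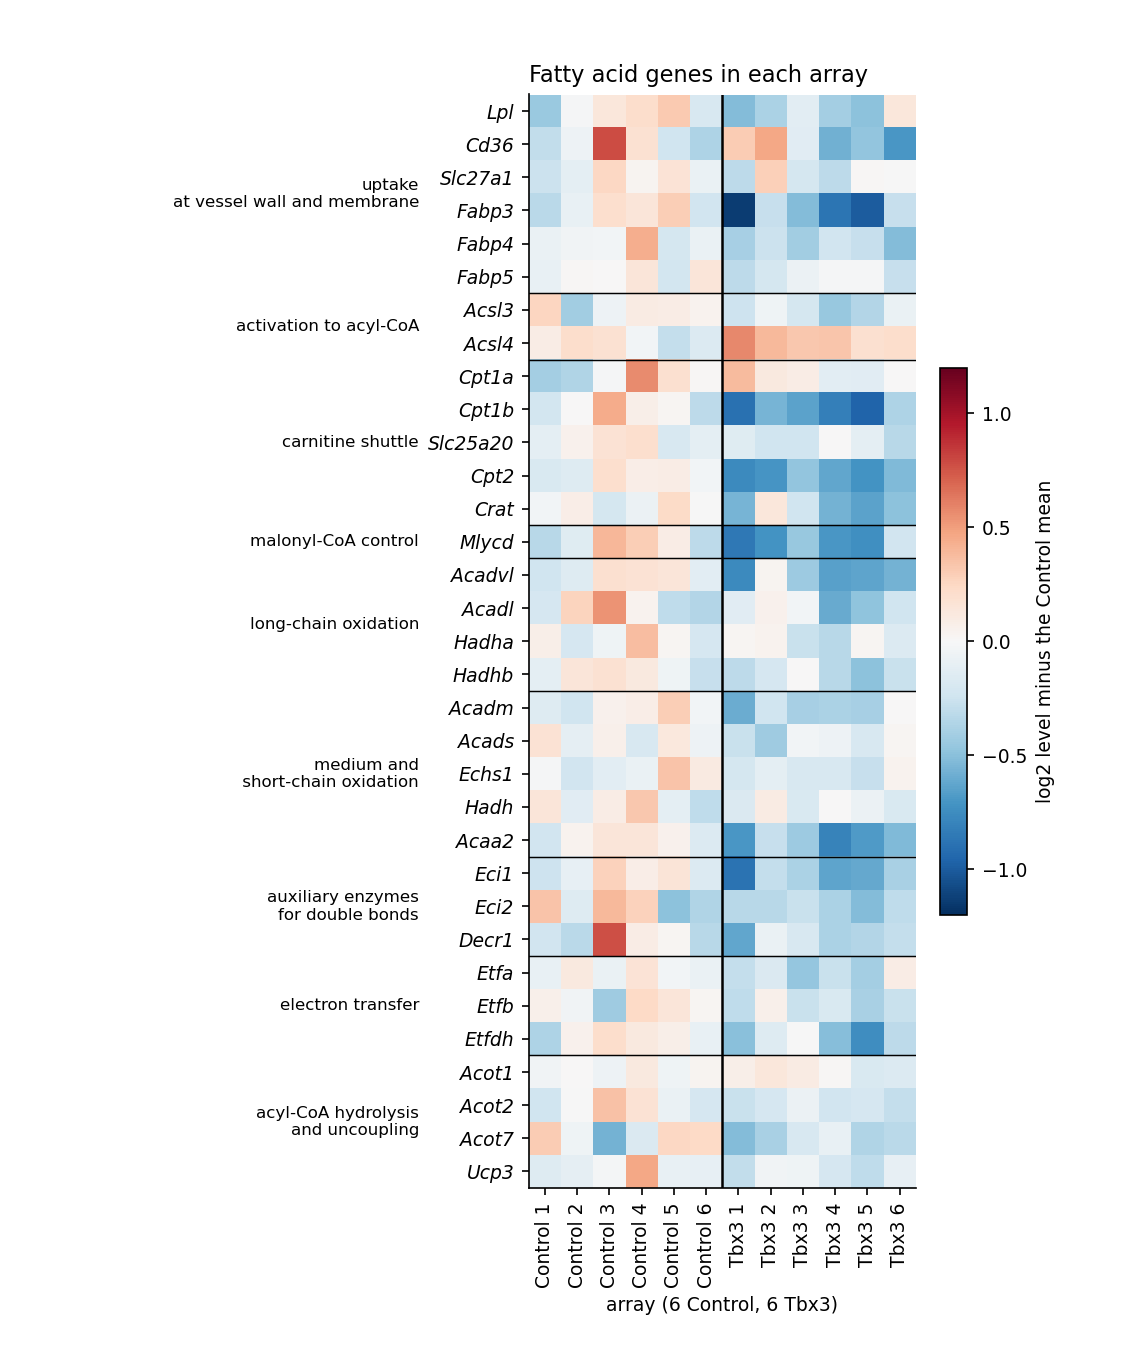
Level of each of the 33 fatty acid genes in each of the 12 arrays, as the log2 level minus that gene's Control mean (blue lower, red higher), with genes in rows by step and arrays in columns. The rows of Fabp3, Cpt1b, Cpt2, Mlycd, Acadvl, Acaa2 and Eci1 are blue in nearly all Tbx3 arrays, and the row of Acsl4 is red in all 6.

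Uptake was represented by 6 genes, of which 1 fell. Fabp3, the heart-type fatty acid binding protein that carries fatty acids through the cytosol, ran from 13.23 to 13.85 in the Control arrays (median 13.58) and from 12.42 to 13.28 in the Tbx3 arrays (median 12.86). All 6 Tbx3 arrays lay under the Control median, and the groups overlapped only where Tbx3 arrays 2 and 6, both at 13.28, read above Control array 1. The fall was 0.68 (SE 0.14, adjusted p = 0.00294), from 13.56 ± 0.25 to 12.87 ± 0.37 (SD, n = 6 each), or 1.60-fold. After erythroid adjustment the change was -0.45 and the call was lost (adjusted p = 0.138), and it was also lost when the variance was fitted robustly with a trend on intensity (adjusted p = 0.0685).

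The 2 related binding protein genes did not pass. Fabp4, the form abundant in adipocytes and capillary endothelium, ran from 5.91 to 6.56 in Control (median 6.06) and from 5.60 to 5.89 in Tbx3 arrays (median 5.78), so the groups did not overlap, but the change of -0.35 (SE 0.11) missed the threshold (adjusted p = 0.0714). Among probes brighter than the median probe alone the same change was called (adjusted p = 0.0426). Fabp5, the epidermal-type binding protein, had a change of -0.15 (SE 0.10, adjusted p = 0.641). Markers of the cells known for Fabp4 were uneven. Of 9 measured adipocyte markers of 10 listed, Cidea was higher (1.86), Plin4 was lower (-0.71) and 7 did not pass. The list mean ran from 5.94 to 6.08 in Control and from 6.09 to 6.28 in Tbx3 arrays, while the median change of the 9 was 0.02. Of the 9, Plin1, Cidec, Lep and Ucp1 were dim, at percentiles 12.3, 12.3, 20.8 and 11.7 of all probes, while Retn, Adipoq, Lipe, Cidea and Plin4 were brighter than the median probe, at 60.9, 70.5, 72.5, 83.9 and 97.3. Of 10 measured endothelial markers, Esam and Flt1 were lower and 8 did not pass. Changes were negative in 6 and positive in 4, from -0.47 in Flt1 to 0.35 in Vwf, with a median of -0.16. The list means ran from 8.59 to 8.78 in Control and from 8.52 to 8.63 in Tbx3 arrays.

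The genes that act outside the cell or in its membrane did not pass either. Lpl, lipoprotein lipase, ran from 11.40 to 12.16 in Control (median 11.90) and from 11.33 to 11.98 in Tbx3 arrays (median 11.46). In Lpl, 5 of 6 Tbx3 arrays read below the Control median and the groups overlapped, with a change of -0.30 (SE 0.13, 95% interval -0.55 to -0.04, adjusted p = 0.306). Cd36, the fatty acid translocase, varied widely within both groups, from 7.03 to 8.19 in Control and from 6.71 to 7.87 in Tbx3 arrays. Its change was -0.18 (SE 0.18), with an interval of -0.55 to 0.18 that leaves room for a fall of the size seen in Acadvl. Slc27a1, the membrane transporter FATP1, had a change of -0.09 (SE 0.11, adjusted p = 0.881).

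Activation to acyl-CoA was represented by 2 synthetases, and neither passed. Acsl4, which prefers arachidonate and other polyunsaturated fatty acids, ran from 7.68 to 8.17 in Control (median 7.99) and from 8.16 to 8.54 in Tbx3 arrays (median 8.29). All 6 Tbx3 arrays were above the Control median, and the ranges touched only where the lowest Tbx3 arrays met the highest Control arrays. The change was 0.34 (SE 0.11, adjusted p = 0.0781), the most positive of the 33, and it was called when only the brighter probes entered or the variance was fitted robustly with a trend (adjusted p from 0.0261 to 0.0459). All 5 Acsl4 probes had positive changes, from 0.06 to 0.34. Acsl3, a synthetase of the endoplasmic reticulum and lipid droplets, had a change of -0.23 (SE 0.11, adjusted p = 0.386) from a probe dimmer than the median probe (percentile 24.3).

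In the carnitine shuttle 2 of 5 genes fell, and the median change of the step was -0.39. Cpt1b, the muscle isoform of carnitine palmitoyltransferase 1, which makes acylcarnitine at the outer mitochondrial membrane, ran from 10.81 to 11.57 in Control (median 11.14) and from 10.17 to 10.76 in Tbx3 arrays (median 10.40). No Tbx3 array reached the Control range, although Tbx3 array 6 and Control array 6 came close. The fall was 0.71 (SE 0.12, adjusted p = 0.000358), from 11.13 ± 0.26 to 10.42 ± 0.22 (SD, n = 6 each), or 1.63-fold. A dimmer Cpt1b probe fell by 0.76 (SE 0.12, adjusted p = 0.000104).

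Cpt2, which turns acylcarnitine back into acyl-CoA at the inner membrane, ran from 10.70 to 11.08 in Control (median 10.90) and from 10.12 to 10.41 in Tbx3 arrays (median 10.21). The groups were well apart and the arrays of each lay close together. The fall was 0.64 (SE 0.10), from 10.88 ± 0.15 to 10.25 ± 0.12 (SD, n = 6 each), with the smallest adjusted p of the 33 genes (0.000101). Its other probe fell by 0.61 (SE 0.10, adjusted p = 0.000237), again with no overlap. After erythroid adjustment Cpt1b and Cpt2 kept their calls, at changes of -0.60 and -0.59 (adjusted p = 0.0167 and 0.00365).

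Cpt1a, the liver isoform, which the heart also expresses, ran from 5.56 to 6.53 in Control (median 5.96) and from 5.83 to 6.34 in Tbx3 arrays (median 6.01), and the Tbx3 arrays lay within the Control range. Its change was 0.06 (SE 0.13, 95% interval -0.21 to 0.33, adjusted p = 0.943). The 95% interval of the Cpt1b change was -0.96 to -0.46. Slc25a20, the carnitine-acylcarnitine translocase, had a change of -0.18 (SE 0.10, adjusted p = 0.543) from a dim probe. Crat, carnitine acetyltransferase, which buffers acetyl-CoA, ran from 8.77 to 9.21 in Control (median 8.96) and from 8.34 to 9.11 in Tbx3 arrays (median 8.45). Only Tbx3 array 2 of Crat read above the Control median. Its change was -0.39 (SE 0.12, adjusted p = 0.0624), and without Tbx3 array 2 it was -0.50 and called (adjusted p = 0.00428).

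Malonyl-CoA, the inhibitor of carnitine palmitoyltransferase 1, is removed by malonyl-CoA decarboxylase, the product of Mlycd. Mlycd ran from 8.45 to 9.18 in Control (median 8.75) and from 7.92 to 8.55 in Tbx3 arrays (median 8.07). The groups overlapped only through Tbx3 array 6, and all 6 Tbx3 arrays lay below the Control median. The fall was 0.62 (SE 0.13, adjusted p = 0.00324), from 8.78 ± 0.31 to 8.16 ± 0.23 (SD, n = 6 each), and after erythroid adjustment the change was -0.45 and no longer called (adjusted p = 0.119).

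**Figure D2:**
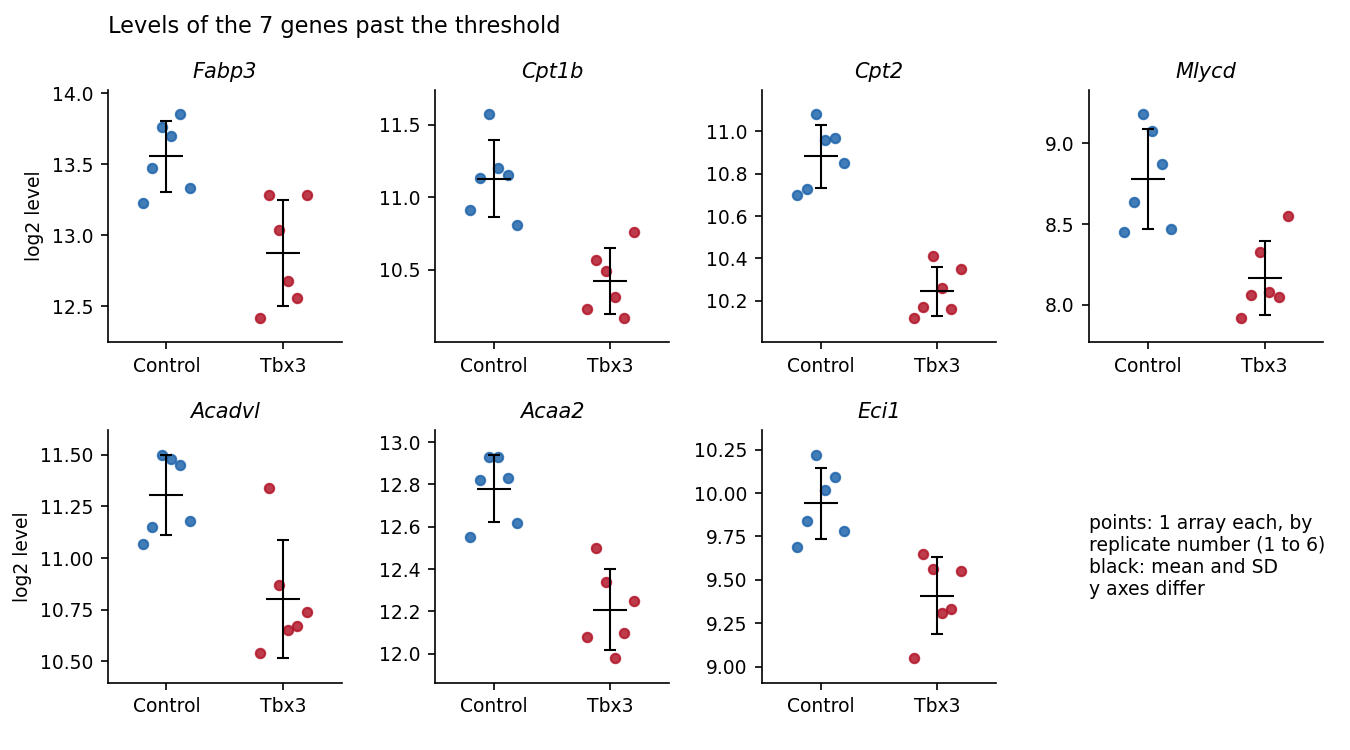
Log2 level of the 7 genes that fell, in each of the 6 Control and 6 Tbx3 arrays, with each point an array, in order of replicate number, and black bars the group mean with its SD, on axes that differ between genes and do not start at 0. The groups do not overlap in Cpt1b, Cpt2, Acaa2 and Eci1, and they meet through Tbx3 arrays 2 and 6 in Fabp3, array 6 in Mlycd and array 2 in Acadvl.

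Long-chain oxidation at the inner membrane was represented by 4 genes, of which 1 fell. Acadvl, very long-chain acyl-CoA dehydrogenase, which takes the first step on long acyl chains, ran from 11.07 to 11.50 in Control (median 11.32) and from 10.54 to 11.34 in Tbx3 arrays (median 10.70). Tbx3 array 2 stood inside the Control range and the other 5 lay below it. The fall was 0.50 (SE 0.12, adjusted p = 0.0122), from 11.30 ± 0.19 to 10.80 ± 0.28 (SD, n = 6 each). The call was lost without Control array 4 and Tbx3 array 6 together (-0.46, adjusted p = 0.0574) and after erythroid adjustment (-0.34, adjusted p = 0.288). Acadl, the long-chain acyl-CoA dehydrogenase, had a change of -0.24 (SE 0.14, adjusted p = 0.543). Hadha and Hadhb encode the subunits of the mitochondrial trifunctional protein, which carries out the remaining steps on long chains. Hadhb ran from 11.99 to 12.45 in Control (median 12.30) and from 11.77 to 12.27 in Tbx3 arrays (median 11.98), and all 6 Tbx3 arrays lay below the Control median. Hadhb had a change of -0.27 (SE 0.11, adjusted p = 0.236), and Hadha one of -0.11 (SE 0.11, adjusted p = 0.822). A dimmer Hadhb probe had a change of -0.06 (SE 0.13, adjusted p = 0.936).

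Of the 5 genes of the medium and short-chain steps, 1 fell. Acaa2, the mitochondrial thiolase that cleaves off acetyl-CoA, ran from 12.55 to 12.93 in Control (median 12.82) and from 11.98 to 12.50 in Tbx3 arrays (median 12.17). The highest Tbx3 array came just under the lowest Control array. The fall was 0.57 (SE 0.11, adjusted p = 0.00101), from 12.78 ± 0.16 to 12.21 ± 0.19 (SD, n = 6 each), and the other Acaa2 probes fell by 0.61 (adjusted p = 0.0129) and 0.66 (adjusted p = 0.00425). After erythroid adjustment the change was -0.45 and still called (adjusted p = 0.0456). Acadm, medium-chain acyl-CoA dehydrogenase, ran from 10.34 to 10.87 in Control (median 10.58) and from 9.98 to 10.58 in Tbx3 arrays (median 10.19). The groups overlapped, with 5 of 6 Tbx3 arrays below the Control median, and the change was -0.33 (SE 0.11, adjusted p = 0.117). Acads, short-chain acyl-CoA dehydrogenase, had a change of -0.16 (SE 0.10, adjusted p = 0.636). Echs1, the short-chain hydratase, had a change of -0.16 (SE 0.10, adjusted p = 0.648), and Hadh, the hydroxyacyl-CoA dehydrogenase of shorter chains, one of -0.08 (SE 0.11, adjusted p = 0.879). A dimmer Hadh probe had a change of -0.32 (SE 0.11, adjusted p = 0.115).

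Unsaturated fatty acids need auxiliary enzymes that shift or reduce double bonds, and 1 of these 3 genes fell. Eci1, an enoyl-CoA isomerase of mitochondria, ran from 9.69 to 10.22 in Control (median 9.93) and from 9.05 to 9.65 in Tbx3 arrays (median 9.44). No Tbx3 array reached the Control range, and the gap was narrow. The fall was 0.53 (SE 0.11, adjusted p = 0.00462), from 9.94 ± 0.20 to 9.41 ± 0.22 (SD, n = 6 each), and after erythroid adjustment the change was -0.39 and no longer called (adjusted p = 0.147). Eci2, the isomerase also found in peroxisomes, ran from 7.13 to 8.01 in Control and from 7.10 to 7.35 in Tbx3 arrays. Its Control arrays spread far more than its Tbx3 arrays, and the change was -0.36 (SE 0.13, adjusted p = 0.168). Decr1, the mitochondrial dienoyl-CoA reductase, had a change of -0.32 (SE 0.14, adjusted p = 0.331).

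None of the 3 electron transfer genes passed in limma, and 2 had an unadjusted p under 0.05. Etfa and Etfb encode the electron transfer flavoprotein that takes electrons from the acyl-CoA dehydrogenases, and Etfdh the oxidoreductase that passes them to ubiquinone. Etfdh ran from 9.38 to 9.96 in Control (median 9.81) and from 9.0 to 9.74 in Tbx3 arrays (median 9.34). All 6 Tbx3 arrays of Etfdh read below the Control median and the groups overlapped, with a change of -0.37 (SE 0.12, adjusted p = 0.0952). The changes of Etfa and Etfb were -0.25 (SE 0.10, adjusted p = 0.279) and -0.22 (SE 0.11, adjusted p = 0.424).

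The 4 genes of acyl-CoA hydrolysis and uncoupling did not pass. Acot7, an acyl-CoA thioesterase of the cytosol, ran from 9.87 to 10.74 in Control (median 10.54) and from 9.92 to 10.35 in Tbx3 arrays (median 10.10). All 6 Tbx3 arrays lay below the Control median but within the Control range. Its change was -0.31 (SE 0.13, adjusted p = 0.253), while a dimmer Acot7 probe had a change of 0.20 (adjusted p = 0.457). Acot1 and Acot2, thioesterases of the cytosol and of mitochondria, are near-identical in sequence, so their probes may share signal. Acot2 had a change of -0.21 (SE 0.11, adjusted p = 0.432). Acot1 had Control and Tbx3 means of 5.46 each (adjusted p = 0.997) from a dim probe (percentile 41.0). Ucp3, a mitochondrial uncoupling protein of muscle, had a change of -0.17 (SE 0.11, adjusted p = 0.637).

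**Figure D3:**
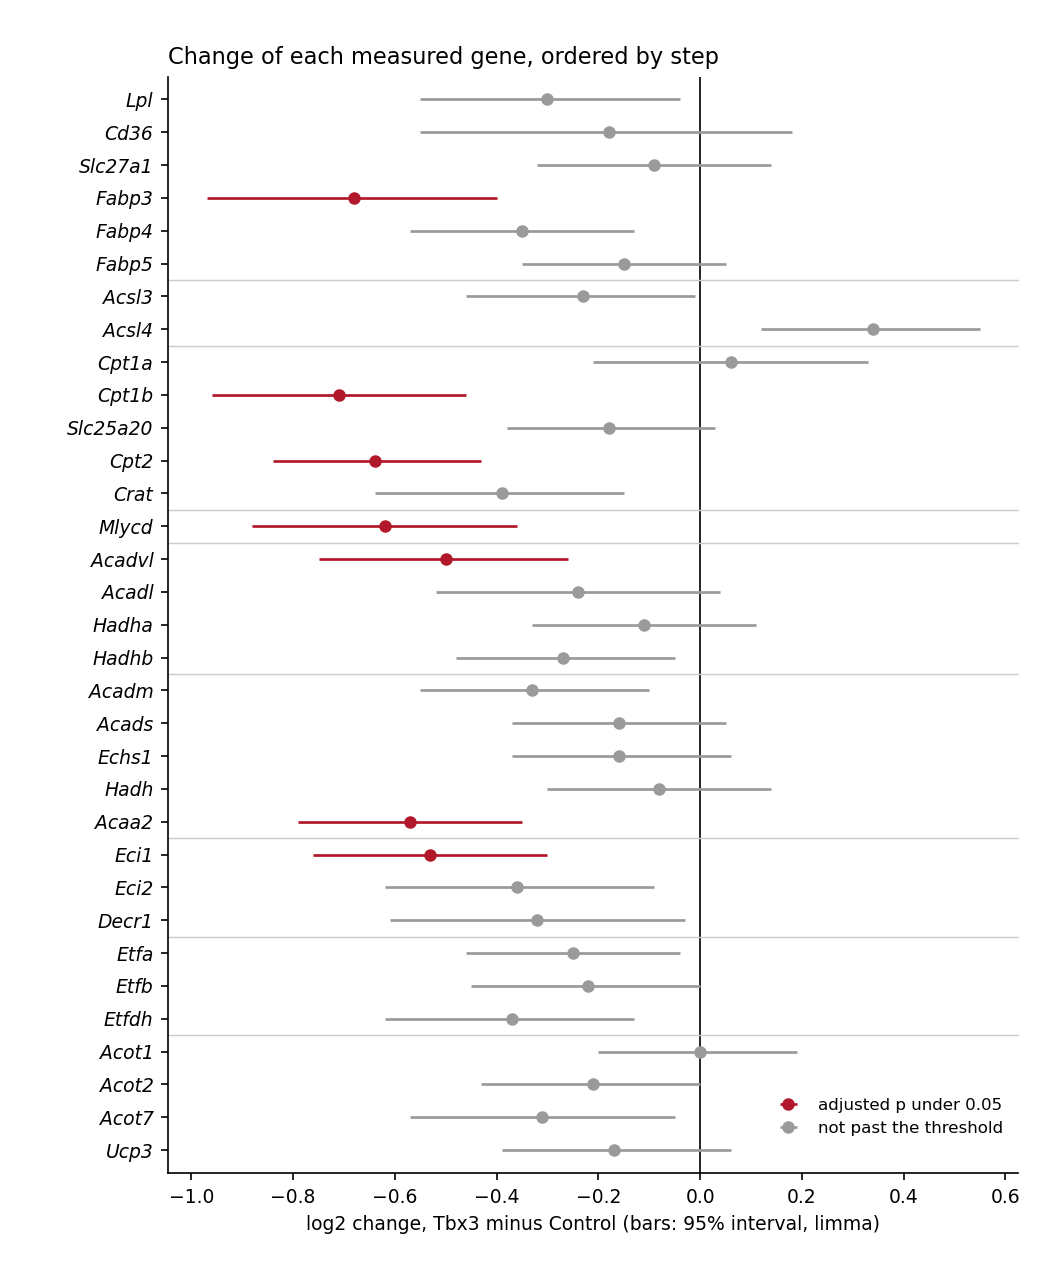
Log2 change, Tbx3 minus Control, of each of the 33 fatty acid genes by step, with its 95% interval from the fit, in red for an adjusted p under 0.05 and grey otherwise, and thin lines between steps. The 7 red points lie between -0.71 and -0.50, and the points of Acsl4 (0.34) and Cpt1a (0.06) are to the right of 0.

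The arrays of each group kept something of an order across the fatty acid genes. Among the 7 genes that fell, Control array 3 was the highest Control array in 6, and Control array 1 was among the lowest 2 in all 7. Tbx3 array 1 was the lowest Tbx3 array in 5 of the 7 and Tbx3 array 2 the highest in 4. Over all 33 genes the mean level ran from 8.66 to 8.94 in Control and from 8.39 to 8.65 in Tbx3 arrays, where array 2 was highest at 8.65. On the same arrays, Tbx3 array 1, with a fatty acid mean of 8.42, had the highest erythroid mean (9.21) and the lowest cardiomyocyte mean (12.59). Tbx3 array 5 had the lowest fatty acid mean (8.39) and an erythroid mean of 8.47. Tbx3 array 3, with a fatty acid mean of 8.57, had an erythroid mean of 8.75. Tbx3 array 2 had the lowest erythroid mean of its group (8.23), its lowest fibroblast mean (9.93) and its highest cardiomyocyte mean (12.99). In Control, array 4 had the highest fatty acid mean (8.94), the lowest erythroid mean (7.28) and the highest cardiomyocyte mean (13.00). Control arrays 1 and 6 had the lowest fatty acid means (8.68 and 8.66) and the highest erythroid means (8.57 and 8.60). Control array 3, with a fatty acid mean of 8.92, had the lowest cardiomyocyte mean of its group (12.72) and an erythroid mean of 8.36. Whether these orders are related was not tested.

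**Figure D4:**
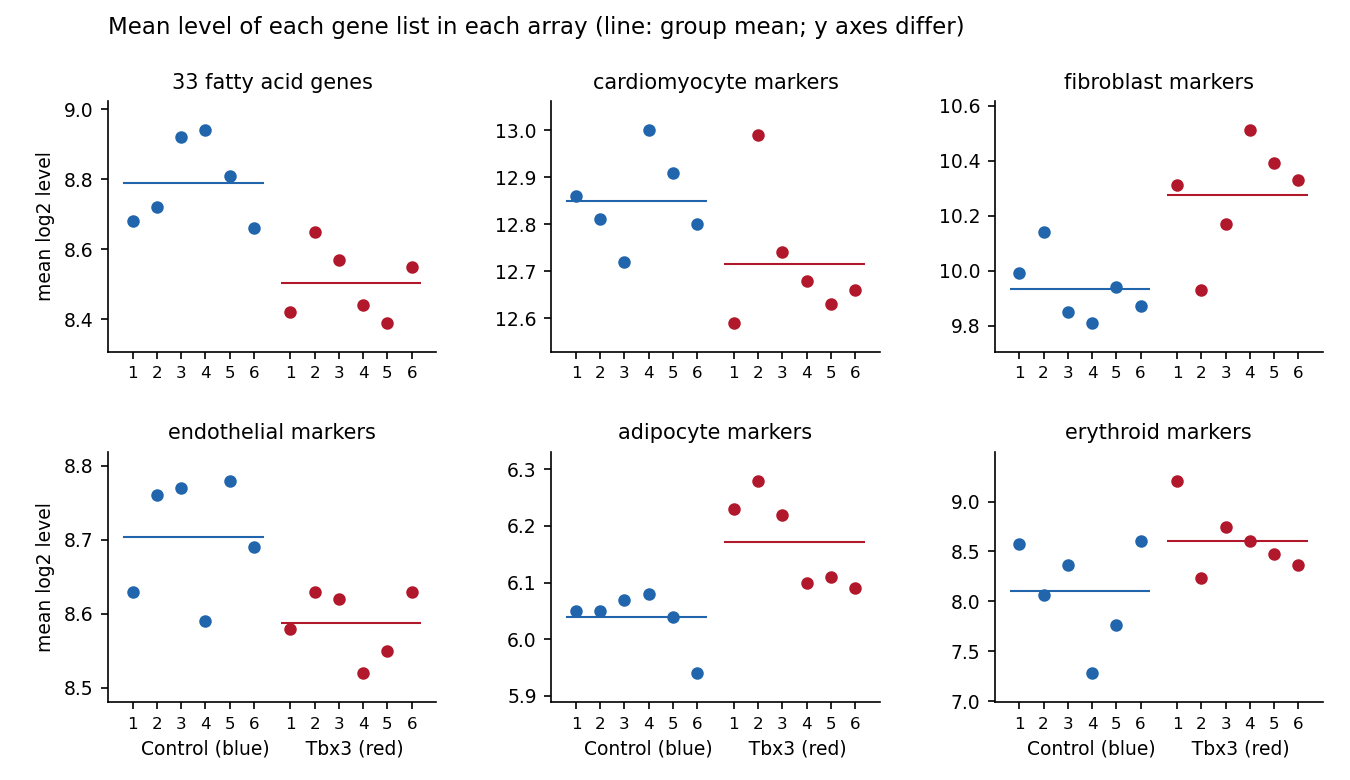
Mean log2 level in each array of the 33 fatty acid genes and of 5 cell type marker lists, by replicate number in Control (blue) and Tbx3 (red), with lines at group means and vertical axes that differ. The fatty acid mean runs from 8.66 to 8.94 in Control and from 8.39 to 8.65 in Tbx3 arrays, while the erythroid mean runs from 7.28 to 8.60 and from 8.23 to 9.21.

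Promoter sequence was read for the genes that fell, to show what lies at their annotated starts. RefSeq windows on GRCm38.p6, from 250 bases before the start to 50 after it, were found for 26 of the 33 genes (28 windows). Of the genes that fell, 5 had a window that could be described, and 3 are printed as the shuttle enzyme, the binding protein and the first dehydrogenase. Capitals mark AGGTCA, the element bound by many nuclear receptors. The windows are those of Cpt2 (chr4:107923540-107923839, minus strand), Fabp3 (chr4:130308488-130308787, plus strand) and Acadvl (chr11:70015379-70015678, minus strand), each written 5′ to 3′ in the direction of transcription.
Cpt2: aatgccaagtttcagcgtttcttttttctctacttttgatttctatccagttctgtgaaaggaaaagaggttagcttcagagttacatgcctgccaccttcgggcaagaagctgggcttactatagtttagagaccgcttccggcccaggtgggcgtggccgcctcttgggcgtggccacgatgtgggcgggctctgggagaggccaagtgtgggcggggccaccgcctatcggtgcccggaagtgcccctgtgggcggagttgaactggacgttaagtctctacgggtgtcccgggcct
Fabp3: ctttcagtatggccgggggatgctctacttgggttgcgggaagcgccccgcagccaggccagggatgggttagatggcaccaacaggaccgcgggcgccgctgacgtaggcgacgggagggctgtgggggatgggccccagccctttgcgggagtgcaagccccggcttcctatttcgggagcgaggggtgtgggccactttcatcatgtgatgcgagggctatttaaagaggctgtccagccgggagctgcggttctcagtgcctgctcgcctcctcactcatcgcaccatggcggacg
Acadvl: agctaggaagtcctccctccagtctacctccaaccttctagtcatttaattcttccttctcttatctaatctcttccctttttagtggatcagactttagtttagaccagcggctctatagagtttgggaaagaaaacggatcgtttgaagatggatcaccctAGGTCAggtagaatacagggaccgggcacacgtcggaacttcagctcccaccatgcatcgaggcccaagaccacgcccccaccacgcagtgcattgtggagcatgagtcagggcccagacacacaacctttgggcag

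In the Acadvl window the element begins 87 bases before the start, and the windows of Cpt2, Fabp3, Mlycd (chr8:119394644-119394943, plus strand) and Eci1 (chr17:24426433-24426732, plus strand) hold none. On either strand, AGGTCA was in windows of 6 of the 26 genes (Acadm, Acadvl, Cd36, Cpt1a, Echs1 and Ucp3), and in 16.3% of all 32851 windows. The T-box element AGGTGTGA was in 0 of the 26 and in 1.28% of all windows. Its core GGTGTGA, contained in the longer form, was in 1 of the 26 (Slc27a1) and in 3.98% of all. The element TCAAGGTCA, known for estrogen-related receptors and overlapping AGGTCA, was in 0 of the 26 and in 0.423% of all. A direct repeat of AGGTCA with 1 base between, known for PPAR, was in 0 of the 26 and in 0.0396% of all. Their absence says only that these letters are not in these windows. The GC content was 65.0% in Fabp3, 68.0% in Mlycd, 61.3% in Eci1, 57.3% in Cpt2 and 50.7% in Acadvl, against a median of 52.7% over all windows. The Hadha and Hadhb windows share 228 bases on opposite strands of chromosome 5, so these subunit genes start beside each other.

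Further genes of the pathway, 79 measured of 84 listed, gave 8 falls, 2 rises and 69 that did not pass, with a median change of -0.11. The falls were 10.1% of the 79, against 2.98% of all genes and 6.64% of those with brighter probes. The 2 rises of 79 are no larger a share than the 2.97% of all genes called higher. Among 37 other genes of uptake, activation and mitochondrial oxidation, 4 fell. Gpihbp1, which anchors lipoprotein lipase on the capillary wall, fell by 0.63 (SE 0.11, adjusted p = 0.000252). Acss1, the mitochondrial acetyl-CoA synthetase, fell by 0.67 (SE 0.11, adjusted p = 0.000209), and Acot13, a mitochondrial thioesterase, by 0.65 (SE 0.11, adjusted p = 0.000358). Acad11, an acyl-CoA dehydrogenase family member, fell by 0.50 (SE 0.11, adjusted p = 0.00586), a call lost after erythroid adjustment (adjusted p = 0.129). Slc27a3, a fatty acid transport family member, rose by 0.39 (SE 0.11, adjusted p = 0.0478), a call lost in 13 of 25 alternative settings, without Control array 2, 3, 5 or 6 or Tbx3 array 1, 2, 3, 4 or 5 among them (adjusted p up to 0.136 in these). Slc22a5, the plasma membrane carnitine transporter, had a change of -0.06 (adjusted p = 0.927), and Acat1, the thiolase of ketone and isoleucine breakdown, one of -0.30 (adjusted p = 0.197).

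In peroxisomes, where very long chains are shortened, 2 of 17 measured genes fell. Scp2, which yields a peroxisomal thiolase and a sterol carrier, fell by 0.66 (SE 0.09, adjusted p = 3.46e-05). Acaa1b, a peroxisomal thiolase read by a dim probe (percentile 47.8), fell by 0.45 (SE 0.11, adjusted p = 0.0211). The Acaa1b call was lost without Control array 3 or 5 or Tbx3 array 3 or 6 (adjusted p up to 0.07). Acaa1a, of the same list and read by a brighter probe (percentile 97.7), did not pass (-0.24, SE 0.10, adjusted p = 0.259). Of 3 measured ketone body genes, Bdh1, the hydroxybutyrate dehydrogenase, rose by 0.91 (SE 0.20, adjusted p = 0.00455), or 1.88-fold. The Bdh1 call was lost with a robust variance trend (adjusted p = 0.163) and after erythroid adjustment (0.81, adjusted p = 0.0714). Oxct1, which activates ketone bodies for oxidation, had a change of 0.02 (adjusted p = 0.977).

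Of 22 measured genes of fuel selection and nuclear control, 2 fell. Ppargc1b, the coactivator PGC-1 beta, fell by 0.75 (SE 0.13, adjusted p = 0.000567), and Rxrg, a retinoid X receptor that pairs with PPARs, by 0.46 (SE 0.10, adjusted p = 0.00669). Ppara, the receptor known for driving fatty acid oxidation genes, had a change of -0.12 (adjusted p = 0.745) from a dim probe (percentile 29.7). Ppargc1a had a change of 0.35 (adjusted p = 0.492) and Esrra, an estrogen-related receptor, one of -0.17 (adjusted p = 0.599). Pdk4, the kinase that restrains pyruvate oxidation, had a change of -0.43 with a wide error (SE 0.30, adjusted p = 0.675). Its Control arrays spread widely, from 8.67 to 11.42 (median 9.42), against 9.25 to 9.82 in Tbx3 arrays (median 9.37).

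Among other energy pathways, 15 of 79 oxidative phosphorylation genes were lower and 2 higher, which is 19.0% lower and a median change of -0.23, close to the 21.2% and -0.25 of the fatty acid genes. In the citrate cycle and pyruvate dehydrogenase 1 of 20 genes was lower (Dlat, -0.45, adjusted p = 0.00605) with a median of -0.21. In glucose uptake and glycolysis 0 of 18 genes were lower in limma (1 at an unadjusted p under 0.05) and 3 were higher, with a median of 0.04. The differences between these lists were not tested.

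**Figure D5:**
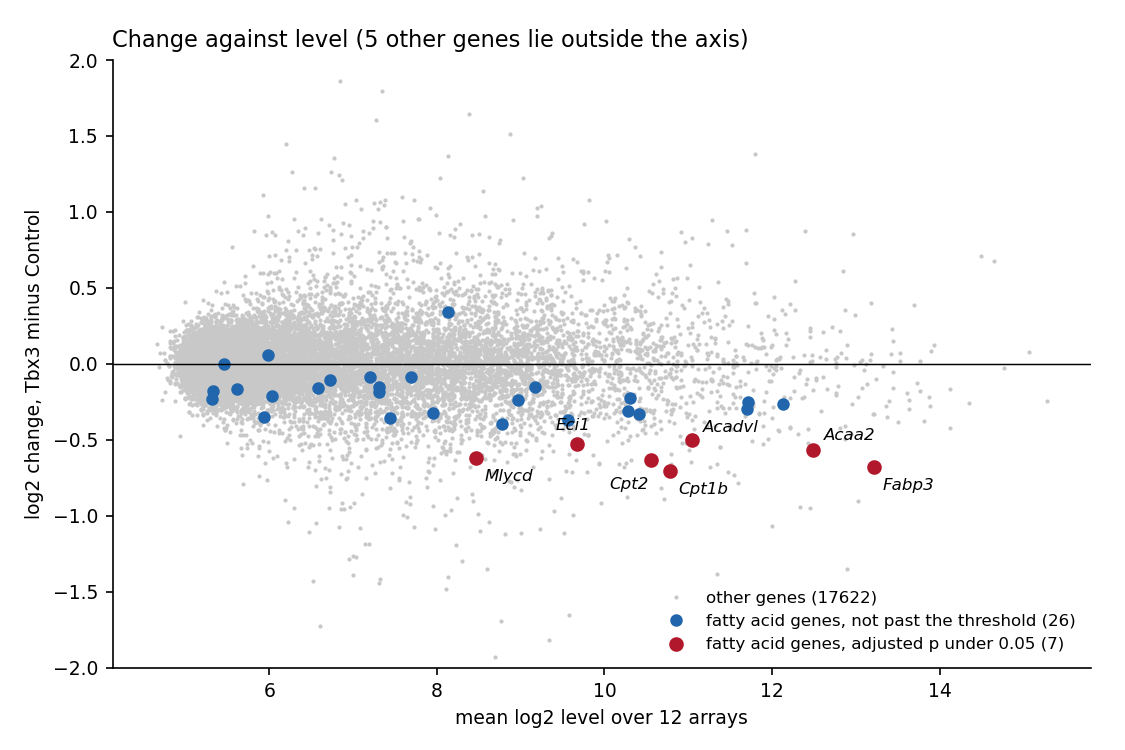
Log2 change, Tbx3 minus Control, against the mean log2 level over 12 arrays, for 17622 other genes (grey), the 26 fatty acid genes that did not pass (blue) and the 7 that did (red, named). The red points lie to the right, among brighter probes, and between -0.71 and -0.50 on the vertical axis.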

How the data were processed

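Groups and replicate numbers came from the sample titles. The authors deposited a log value for each probe on each array. How they corrected background and normalized is not given in the sources used here. Natural log is inferred from the deposited values, which ran from 2.63 to 10.81, or up to 49513 on base e and 1795 on base 2. They were divided by the natural log of 2. Of 46133 rows, 10 empty and 9 repeated ones were dropped, leaving 46114 probes, of which 29533 carried 1 gene symbol, 11 more than 1 and 16570 no symbol. Symbols came from the platform annotation, updated through a RefSeq table (GRCm38.p6). Interquartile ranges differed by 20.4% between arrays, so arrays were quantile normalized. The array number limits the precision, and no detection values were used, so background level is not known per probe.

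Tbx3 was compared with Control in limma 3.58.1 (R 4.3.3; lmFit, eBayes, 2-sided) over all probes, after tests on simulated data, with the brightest probe per gene. Intervals are 95% intervals of the fit. The text names every measured fatty acid gene, the related genes that passed (up to 4 per list) and 8 related genes whatever they showed. Acaa1a was added beside Acaa1b. Members and lists were chosen with earlier results of these data known. Differences within 7 pairs of related genes were also computed, but the pairs were chosen after values were seen and are not reported. Alternatives covered normalization, dim probes, variance, weights, blocks, covariates and left-out arrays. Protein sequences were planned but not used here.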

Additional observations from a re-analysis of the deposited data

Results flagged for a closer look

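Among 50 genes examined in each group (100 sets of 6 arrays), 5 had 1 array far from the other 5 by the gap to the nearest one relative to the range, and chance gives about 1 in 20. Control array 4 read highest in Fabp4, at 6.56 against 5.91 to 6.09 in the other Control arrays, and in Ucp3, at 6.17 against 5.55 to 5.68. Control array 3 read highest in Decr1, at 8.89 against 7.78 to 8.20. The same array read lowest in Ppargc1a, at 7.77 against 8.75 to 9.33. Tbx3 array 2 read highest in Pdk4, at 9.82 against 9.25 to 9.45 in the other Tbx3 arrays. None of these 5 genes passed the test between the groups.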

How the results depend on the processing

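The count of fatty acid genes that fell, 7, ran from 7 to 9 when any 1 array was left out, was 6 at an adjusted p under 0.01, and was 10 when only probes above the 75th percentile of brightness were tested. It dropped to 3 with the erythroid mean as a covariate, where the calls in all probes went from 1592 to 805. They were 896 at an adjusted p under 0.01. The covariate differs between the groups, so it also takes up part of the contrast. Cpt1b, Cpt2 and Acaa2 kept their calls in all 25 settings in which they were tested. The count that rose, 0, became 1 (Acsl4) with probes above the median, with those above the 75th percentile and with a robust variance trend. The median change stayed between -0.30 and -0.17, the last with the table read as base 2. Of the related genes, 7 to 10 fell. Those that rose, 2, became 4 above the 75th percentile, 1 with odd or even number as a covariate, 1 at an adjusted p under 0.01, 1 when a gene's probes were averaged, 0 with the erythroid covariate and 1 to 2 with any array left out. The causes were not tested.

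Directions turned only for genes that did not pass. With the erythroid covariate the changes were 0.04 in Slc27a1, 0.01 in Hadh, 0.01 in Acot1 and -0.04 in Oxct1. Without Control array 4 and Tbx3 array 6 together they were 0.05 in Acot1 and -0.05 in Oxct1. Oxct1 was -0.05 as deposited, -0.05 with median centring and -0.08 as the mean of probes. With 1 array left out the changes ran from -0.02 to 0.17 in Cpt1a, -0.03 to 0.03 in Acot1, -0.10 to 0.00 in Slc22a5 and -0.02 to 0.09 in Oxct1.

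With replicate number as a replicate block, 7 fatty acid genes fell, 0 rose and the median was -0.25. Same-numbered arrays correlated at -0.02 to 0.069 after removal of group means. Such correlations cannot show whether the mice were paired, which was not tested further.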

Other observations

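Cidea, a lipid droplet protein gene of fat tissue, rose by 1.86 (adjusted p = 2.3e-11). The smooth muscle genes Acta2, Myh11 and Tagln rose by 0.88, 0.76 and 0.77 (adjusted p = 0.000148, 0.0028 and 1.18e-05), while Rgs5, a pericyte marker, fell by 1.04 (adjusted p = 0.000508) and Smtn by 0.42 (adjusted p = 0.0238). Of 9 measured macrophage markers, 0 were called in limma (2 higher at an unadjusted p under 0.05), with list means from 7.20 to 7.49 in Control and from 7.22 to 7.54 in Tbx3 arrays. Of 8 epicardial and mesothelial markers, 1 was lower (Lrrn4).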
